A study of Camponotus floridanus with 24 samples.

Results

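The 12 larvae with the highest level of a variable hairpin pair were set against the 12 with the lowest, out of 24 single larvae of Camponotus floridanus, the Florida carpenter ant. The groups are not labelled treatments. All 24 larvae were ranked by the authors' deposited RPM (reads per 1000000 reads) of 1 microRNA form, the first-listed mature form of hairpin NW_020229214.1_5, and the ranking was split in the middle into an upper 12 and a lower 12. Every animal was a female in the terminal larval stage, every library came from a whole body, and no treatment, genotype, colony or age in days was given for either group. The larvae differed in labelled body length, and the study's design concerns worker size across larval lengths. In whole bodies, fewer cells of a type and less RNA per cell cannot be told apart, and nothing in the labels says whether larvae shared a nest.

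MicroRNAs are short RNAs cut from hairpin-shaped precursors. After cutting, a strand of the resulting duplex is loaded into an Argonaute protein and guides it to partly matching messenger RNAs, whose translation and stability it lowers, while the other strand is usually degraded. Hairpins that lie close together on a chromosome are often transcribed as a single primary transcript, and in insects microRNAs take part in moulting, metamorphosis and tissue growth. Every hairpin name occurs in 2 blocks of the tables with different counts, called its first-listed and second-listed form here. Which block holds which arm of the hairpin is not stated. Hairpins are named by scaffold and a running number. None of the 459 hairpin names matched an entry among 14020 RefSeq genes, 0 of which are of the miRNA class, so no known miRNA name, position or sequence is given for them.

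The deposited read total was between 881883 and 6130171 reads a library. The libraries fall into a set of 9 and a set of 15 by a single form, the first-listed form of NW_020229223.1_2442, which was at 2737.25 RPM or more in the 9 and at 192.91 RPM or less in the 15. What makes the sets differ is not stated in the labels. The sets also differed in depth. Counted reads averaged 1330090 in the upper and 1349110 in the lower larvae of the set of 9. In the set of 15 they averaged 4331200 and 4262700. Of the 332 other forms tested below, 5 separated the sets without overlap. The upper 12 held 5 larvae of the set of 9 and 7 of the set of 15, and the lower 12 held 4 and 8, which gave a p of 1 in a two-sided Fisher's exact test. No pair of libraries was a repeat of another, since over 276 pairs a chi-square test of their counts gave at least 25.4 per degree of freedom.

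The ranking form spanned 251-fold over the 24 larvae. It had a lowest level of 2083 RPM, a median of 4234 RPM and a highest of 43379 RPM in the upper 12, against 173, 820.2 and 1557 RPM in the lower 12. The ranking fixed this separation, so it is given with no test. The larvae on either side of the split were close together: ant 19, the lowest of the upper 12, had 2083 RPM and ant 15, the highest of the lower 12, had 1557 RPM. The upper group was stretched by 2 larvae. Ant 32 had 43379 RPM and ant 3 had 25741 RPM, while the next, ant 44, had 10964 RPM. Ants 32 and 3 both belong to the set of 9, and their libraries had 906884 and 903678 deposited reads, among the shallowest of the 24. At the lower end ant 27 had 173 RPM. The ranking form was counted from at least 621 reads in every library, so counting error is small beside these differences.

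The place of the ranking form among the microRNAs of its larva moved with its level. In the upper 12 it stood between rank 7 and rank 50 of all forms in the same larva, with a median rank of 33.5, against rank 53 to rank 107 and a median of 75.5 in the lower 12. The 4 forms of the pair together took 0.223% to 4.63% of the reads in the upper 12 and 0.0180% to 0.160% in the lower 12. Averaged over the larvae the ranking form was rank 30 in abundance.

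**Figure D1:**
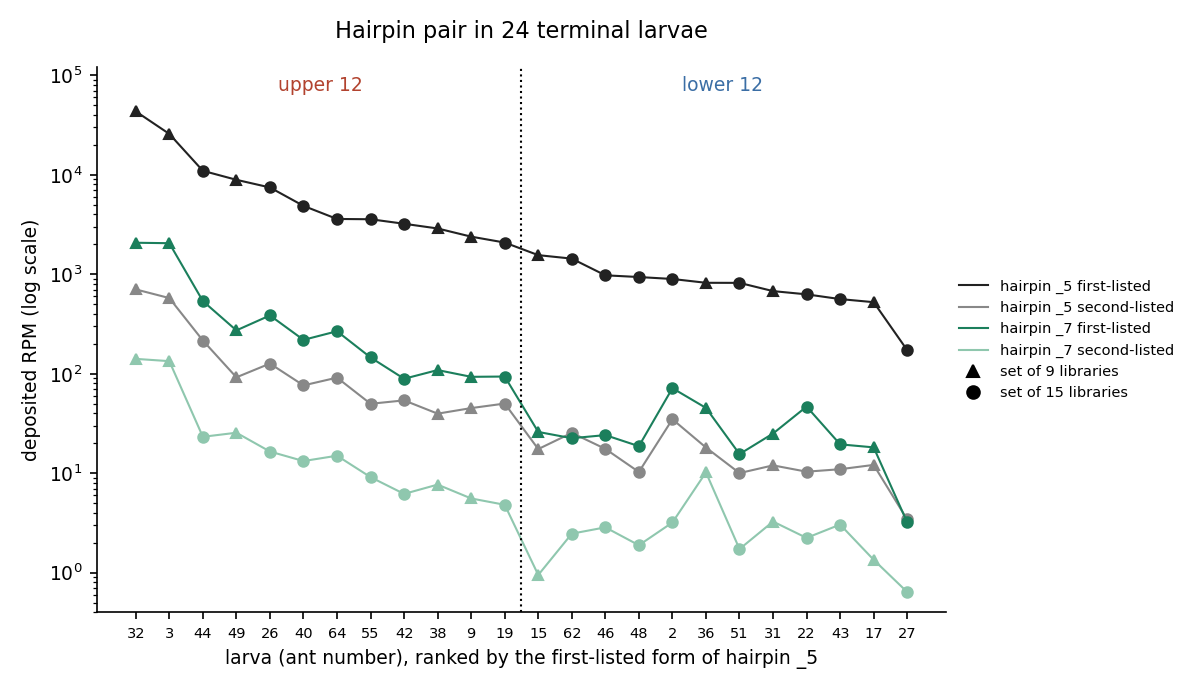
Deposited RPM on a log scale of the 4 mature forms of hairpins NW_020229214.1_5 and NW_020229214.1_7 in each of the 24 larvae, from the highest to the lowest of the ranking form. Triangles are the set of 9 libraries and circles the set of 15, the dotted line is the split between the upper 12 and the lower 12, and each line joins 1 form across larvae. The first-listed form of the second hairpin lies at 89.1 RPM or more left of the split and at 71.7 RPM or less right of it.

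The second hairpin, NW_020229214.1_7, comes from the same scaffold and moved with the first. Its first-listed form, rank 100 in abundance, had 89.1, 243 and 2074 RPM (lowest, median and highest) in the upper 12, against 3.21, 23.3 and 71.7 RPM in the lower 12, a span of 646-fold over all larvae. The groups did not overlap, and ranking the larvae by this form gave the same 12 larvae in each group. In NW_020229214.1_5 the second-listed form had 39.7, 83.9 and 705 RPM in the upper 12, against 3.43, 12.1 and 34.9 RPM in the lower 12, again without overlap. The second-listed form of NW_020229214.1_7 had 4.82, 14.1 and 141 RPM in the upper 12, against 0.640, 2.36 and 10.2 RPM in the lower 12. Its groups overlapped, and in the lower 12 it was counted from as few as 2 reads, where a floor of 3 reads is worth between 0.489 and 3.40 RPM depending on the library.

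Across the 24 larvae, log2 CPM (counts per 1000000 reads after scaling of the library sizes) of the ranking form had an r (Pearson) of 0.97 with its hairpin's own second-listed form, 0.96 with the first-listed form of NW_020229214.1_7 and 0.92 with its second-listed form. Within the upper 12 the 3 values were 0.96, 0.96 and 0.97, and within the lower 12 they were 0.80, 0.63 and 0.30. By rank (Spearman's rho) they were 0.92, 0.93 and 0.94 within the upper 12. Within the lower 12 the rho was 0.64, 0.25 and 0.04, so the order of the 2 hairpins hardly matched there. The forms of a larva share a library and its depth, and in the lower 12 the second hairpin rests on few reads, so these values are a description.

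The balance between the hairpins and between their forms varied less than the level. Each larva had 12.5 to 36.1 reads of the first-listed form of NW_020229214.1_5 for 1 read of that of NW_020229214.1_7 in the upper 12, with a median of 22.2, against 12.5 to 63.8 and a median of 34.6 in the lower 12. The first-listed to second-listed ratio of NW_020229214.1_5 had a median of 59.2 in the upper 12 and 56.0 in the lower 12. For NW_020229214.1_7 that ratio had a median of 16.2 in the upper 12 and 9.05 in the lower 12. The ranges of all 3 ratios overlapped between the groups, and none was tested, because the ranking form or its neighbour enters each.

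Few other forms varied as much. The SD of log2 CPM over the 24 larvae was 1.90 for the ranking form, 1.84 for its hairpin's second-listed form, 2.22 and 1.77 for the first- and second-listed forms of NW_020229214.1_7, and had a median of 0.42 over the 332 other forms tested. Once length and library set were taken out, the first-listed form of NW_020229214.1_7 had the highest SD of all 336 forms, at 2.09, and the other 3 held ranks 11 to 13. Length and set together took up 22.3% of the variance of the ranking form on the log2 scale. The 10 most variable forms beside the pair were mostly copies of each other: 6 of them shared 1 count profile in every library, and 3 shared another.

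**Figure D2:**
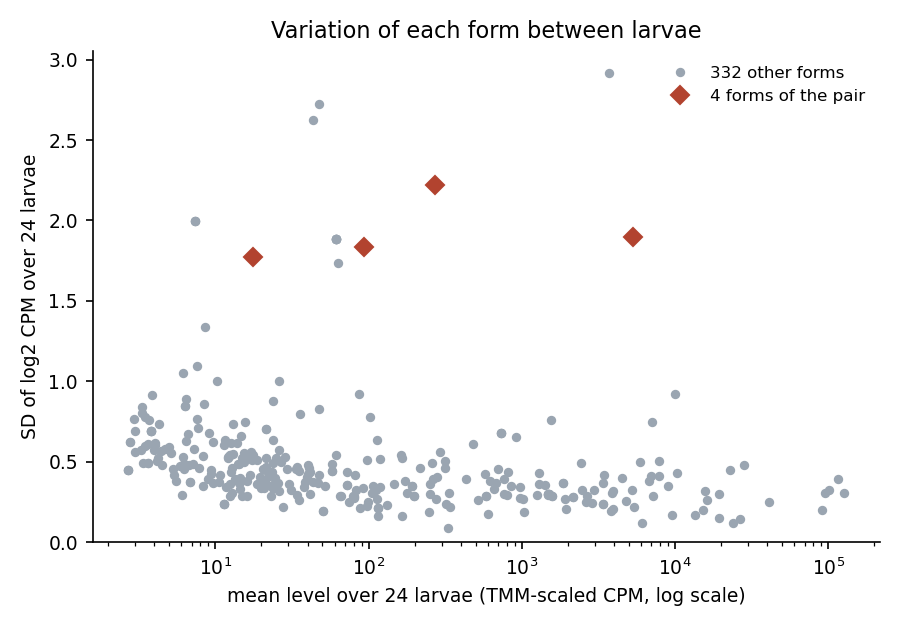
SD of log2 CPM over 24 larvae, for each form, by its mean level in TMM-scaled CPM on a log scale. Diamonds are the 4 forms of the hairpin pair and dots the 332 other forms. The 4 diamonds lie between 1.77 and 2.22, above nearly all dots, whose median is 0.42.

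The remaining question was whether larvae that differ this much in the pair differ elsewhere in their microRNAs. The 332 other forms, 231 first-listed and 101 second-listed, were compared between the upper 12 and the lower 12 in a single edgeR quasi-likelihood fit, with labelled length and library set as covariates and both hairpins of the pair left out of the tested forms. None passed a Benjamini-Hochberg adjusted p of 0.05 (0 of 332, 0.0%), and the smallest adjusted p was 0.318. The unadjusted p was under 0.05 for 20 forms (6.02%), 7 higher and 13 lower in the upper 12. DESeq2 and limma-voom also called 0, with 24 and 22 forms at an unadjusted p under 0.05. With log10 of total reads added as a covariate, edgeR called 3 forms (0.904%), 2 higher and 1 lower in the upper 12. In that fit 68 of the 332 forms had an unadjusted p under 0.05, against 20 in the main fit, and the cause was not tested. No form separated the groups completely: the count of forms with no overlap between upper and lower larvae was 0 of 332 (0.0%).

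The fitted differences were small in most forms. Their median was 0.00 on the log2 scale (upper minus lower), with a middle 50% between -0.13 and 0.13 and a range of -0.66 to 1.58. The 95% interval of the difference lay within 2-fold in both directions for 313 forms, or 94.3%, and within 1.5-fold for 227. For 11 forms the interval reached past 4-fold, so these data do not exclude a difference of that size in them. The 4 forms of the pair differed by 2.55 to 3.52 in mean log2 CPM, without covariates and with no test. The groups were chosen by the ranking form only, whose difference was 3.00. A form kept the same sign of difference in the set of 9 and the set of 15 in 178 of the 332 cases.

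**Figure D3:**
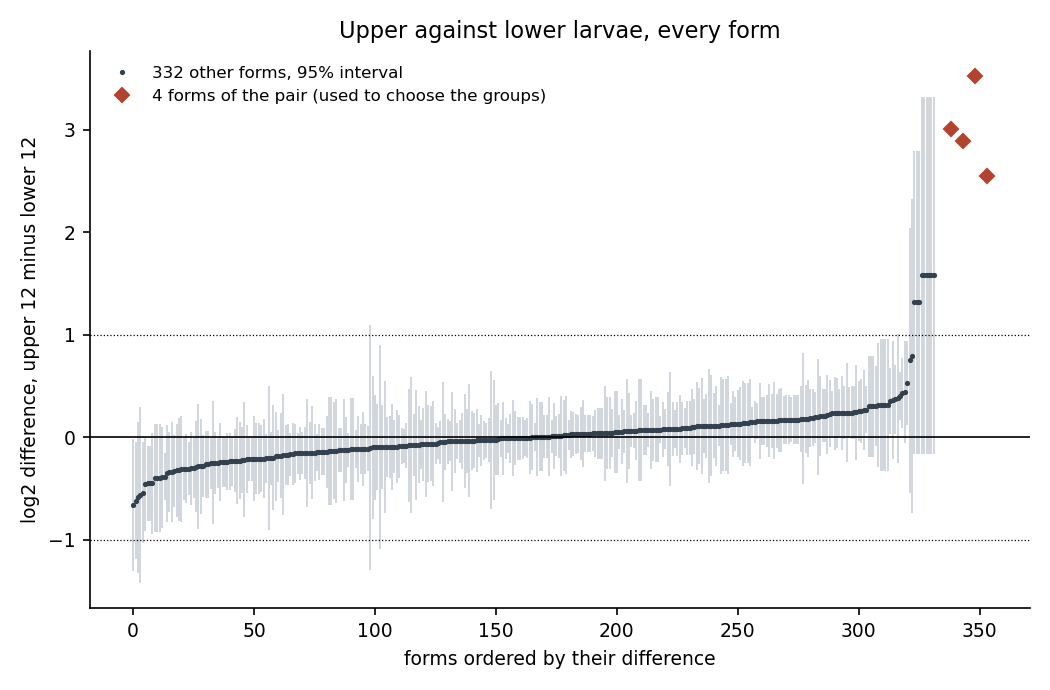
Log2 difference of the upper 12 minus the lower 12, for the 332 other forms in order of size (dots) with their 95% intervals (grey lines), from the edgeR fit with length and library set. Diamonds at the right are the 4 forms of the pair, as differences of mean log2 CPM with no test. Only the ranking form chose the groups, so the legend's note on that choice holds for that form alone. Dotted lines mark a 2-fold difference. The dots lie between -0.66 and 1.58, and the diamonds between 2.55 and 3.52.

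The forms with the smallest p in each direction are given by larva. The second-listed form of NW_020229841.1_37657, rank 145 in abundance, had 36.8, 72.1 and 113 CPM (lowest, median and highest) in the upper 12, against 45.5, 68.4 and 130 CPM in the lower 12. The groups overlapped almost entirely, and 8 of the 12 upper larvae lay above the lower median. With length and set in the fit its difference was 0.40 ± 0.11 (SE; log2, 95% interval 0.17 to 0.63), and edgeR's adjusted p was 0.318. This form fell with length, by 0.43 per 1000 µm on the log2 scale, and its raw means were 75.7 CPM in the upper 12 and 68.7 CPM in the lower 12. Without length in the fit its difference was 0.13 (set only) or 0.11 (no covariate). Without ant 42, an upper larva, the form passed edgeR's test with an adjusted p of 0.0205. A second-listed form of another hairpin on the same scaffold, rank 157, had a fitted difference of 0.43 ± 0.17 (SE) and an adjusted p of 0.586 in edgeR, and differences of 0.24 with set only and 0.19 with no covariate.

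The first-listed form of NW_020229370.1_19768, rank 98, had 219, 359 and 564 CPM in the upper 12, against 131, 218 and 406 CPM in the lower 12. All 12 upper larvae lay above the lower median, and the groups still overlapped. Its difference was 0.52 ± 0.20 (SE; 95% interval 0.11 to 0.93), with an adjusted p of 0.586 in edgeR. Its length slope was -0.01 per 1000 µm, and it was higher in the upper larvae by 0.40 in the set of 9 and by 0.56 in the set of 15, with adjusted p in edgeR of 0.988 and 0.534. With log10 of total reads in the fit its difference was 0.73 and its adjusted p 0.0309.

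On the lower side, both forms of hairpin NW_020229272.1_8976 were among those with an unadjusted p under 0.05. Its second-listed form, rank 161, had 31.8, 48.4 and 69.4 CPM in the upper 12, against 33.2, 52.5 and 76.4 CPM in the lower 12. The difference was -0.39 ± 0.11 (SE; 95% interval -0.62 to -0.16), with an adjusted p of 0.318 in edgeR, and 5 of 12 upper larvae lay above the lower median. With no covariate the difference was -0.25. Its first-listed form, rank 14 and far more abundant, had 10465, 14242 and 19591 CPM in the upper 12, against 8516, 16820 and 23271 CPM in the lower 12, a difference of -0.31 ± 0.13 (SE) with an adjusted p of 0.586, and of -0.17 between the upper 8 and lower 8. The 2 forms come from the same precursor, so they are not separate evidence.

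The first-listed form of NW_020229300.1_12464, rank 213, had 8.60, 20.2 and 43.4 CPM in the upper 12, against 8.91, 22.8 and 42.7 CPM in the lower 12. The groups covered the same range. Its fitted difference of -0.45 ± 0.18 (SE; 95% interval -0.82 to -0.08; edgeR's adjusted p 0.586) came with a steep length slope of 0.71 per 1000 µm, and without length in the fit it was 0.03. Another hairpin has identical counts in every library, so its reads cannot be given to a single locus.

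**Figure D4:**
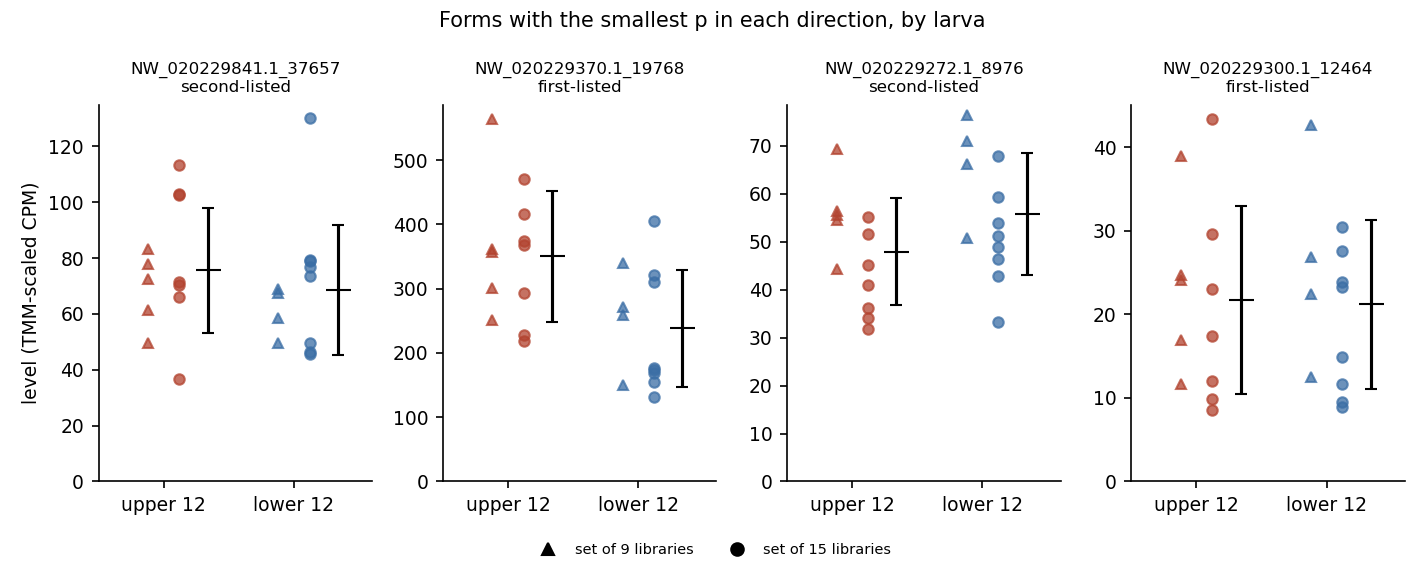
TMM-scaled CPM in each larva of the 2 forms with the smallest p in each direction, upper 12 at the left and lower 12 at the right of each panel. Triangles are the set of 9 libraries, circles the set of 15, and the black bars are means with SD over 12 larvae. The groups overlap in every panel, and NW_020229370.1_19768 is at 350.3 ± 101 CPM in the upper 12 and 239 ± 91.0 CPM in the lower 12.

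The abundant forms make up most of each library. The median SE of the difference was 0.09 in the 20 most abundant, against 0.16 over all 332 forms. The form of rank 18 was less precise, with an SE of 0.34. Of the 20 most abundant, 0 passed the adjusted threshold in edgeR (0.0% of all forms did) and 1 had an unadjusted p under 0.05. Their differences lay between -0.31 and 0.11 with a median of -0.06, 4 were positive, and all 20 intervals lay within 2-fold. The most abundant form of all, a first-listed one, had 74706, 121518 and 143200 CPM in the upper 12, against 88769, 145516 and 164884 CPM in the lower 12. None of the 12 upper larvae lay above the lower median, yet the groups overlapped. The fitted difference was -0.16 ± 0.10 (SE, 95% interval -0.36 to 0.04). Its level differed between the library sets, with means of 101093 CPM (upper) and 103275 CPM (lower) in the set of 9. In the set of 15 they were 129223 and 151652 CPM. The difference was 0.04 in the set of 9 and -0.30 in the set of 15, with adjusted p in edgeR of 0.999 and 0.268. The second most abundant form had a difference of -0.05 ± 0.10 (SE; 95% interval -0.26 to 0.16).

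The other forms on the pair's scaffold did not follow it as a group. Of 50 forms listed there beside the pair, 24 passed the filter on low counts, and 0 of the 24 had an unadjusted p under 0.05, against 6.02% of all forms. Of these 24, 12 were positive, and their median difference was 0.00, with a range of -0.28 to 0.79. The highest values belong to 2 first-listed forms of ranks 191 and 294, and ant 40, an upper larva, was the highest larva in both. The form of rank 191 had 6.34, 14.5 and 297 CPM in the upper 12, against 7.24, 15.3 and 21.9 CPM in the lower 12. The form of rank 294 had 0.722, 3.08 and 75.9 CPM in the upper 12, against 1.12, 3.48 and 5.27 CPM in the lower 12. In both the groups overlapped apart from that larva's value, and the 95% intervals ran from -0.54 to 2.04 and from -0.74 to 2.33. Running numbers are not distances, so which of these forms neighbour the pair was not analysed here.

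Over the 24 larvae the form most like the ranking form was a first-listed one of rank 35, from the same scaffold as NW_020229370.1_19768, with an r of 0.77 (Pearson) and a rho of 0.73 (Spearman) on log2 CPM. It had 2929, 4096 and 6497 CPM in the upper 12, against 2908, 3462 and 4542 CPM in the lower 12, and 11 of the 12 upper larvae lay above the lower median. The groups overlapped. Its difference was 0.27 ± 0.11 (SE), with an adjusted p of 0.586 in edgeR, and with the ranking form as a continuous term it was higher by 0.11 per doubling, with an adjusted p of 0.0765. Its difference was 0.46 in the set of 9 and 0.10 in the set of 15, and between the upper 8 and lower 8 it was 0.54, with an adjusted p of 0.0761. The next in likeness were the forms of rank 135 (r of 0.65) and rank 28 (r of 0.55), then 2 identical forms of rank 159 (r of 0.51). These were picked from 332 forms as the highest, all values of a larva share its library, and the median r over all forms was 0.03.

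The largest fitted differences belonged to the highly variable profile that 6 forms share, rank 151. It had 7.37, 85.4 and 152 CPM in the upper 12, against 3.13, 13.8 and 158 CPM in the lower 12. High and low larvae occurred in both groups, and 9 of the 12 upper larvae lay above the lower median. The difference was 1.58 ± 0.84 (SE; 95% interval -0.16 to 3.32), with an adjusted p of 0.586 in edgeR. Without length in the fit it was 0.58 (set only) or 0.60 (no covariate), and it was -0.41 ± 1.52 (SE) in the set of 9 and 2.60 ± 0.92 (SE) in the set of 15. The difference between the sets had an adjusted p of 0.949 in edgeR. This profile was chosen for the text after its values were seen.

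The comparison of the sets and of the forms gave no calls either. In an edgeR fit with an interaction term, 0 of 332 forms (0.0%) had an upper-against-lower difference that depended on library set, and 5 (1.51%) had an unadjusted p under 0.05. DESeq2 called 0, with 12 at that level. For the 101 hairpins with both forms past the filter, limma compared the log2 of first-listed over second-listed counts, which asks whether the balance of the forms differed. None was called (0 of 101, 0.0%), 5 (4.95%) had an unadjusted p under 0.05, and the smallest adjusted p was 0.764. The ratio with the smallest p belonged to a hairpin whose forms are of ranks 193 and 292, at a mean log2 ratio of 2.58 ± 0.94 in the upper 12 and 1.66 ± 0.53 in the lower 12 (SD, n = 12 each). Its second-listed form was scarce, with a median of 5.21 CPM in the upper 12 and 7.17 CPM in the lower 12. Its lowest count was 0 reads, so the 0.5 added to each count weighs on this ratio.

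Length is the size measure of the study and a covariate here. Upper larvae measured 6464 ± 859 µm and lower larvae 5858 ± 922 µm (SD, n = 12 each), a difference with a p of 0.107 in a two-sided permutation test of 100000 resamples, or 0.214 when adjusted over 6 library-wide measures. The ranking form had an r of 0.38 (Pearson) and a rho of 0.36 (Spearman) with length over the 24 larvae, an r of 0.49 in the set of 9 and of 0.39 in the set of 15, given as a description. Its r over the 24 larvae was -0.26 with log10 of total reads and 0.29 with log2 RPM of the form that defines the sets. Within the upper 12 these were -0.62 and 0.54 (rho -0.43 and 0.34), and within the lower 12 -0.02 and 0.10. Ants 32 and 3 had the highest levels of that form, at 20614.5 and 16626.5 RPM. In the fit that holds the pair term, 34 forms rose with length (10.2%) and 38 fell (11.4%), so 72 of the 332 forms (21.7%) were called for length where 0 were called for the pair. Without the pair term 81 were called (24.4%), and 68 were shared by both fits.

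Of the library-wide measures, computed without the pair, the share of reads in second-listed forms had the smallest p. It was 5.21% ± 0.265 in the upper 12 and 4.96% ± 0.140 in the lower 12 (SD, n = 12 each), with a permutation p of 0.00950 and an adjusted p of 0.0570. The ranges overlapped, at 4.70% to 5.68% in the upper 12 and 4.82% to 5.26% in the lower 12. The permutation tests of the library-wide measures held no term for length or library set. Within the set of 9 the shares were 5.37% ± 0.190 in 5 upper larvae and 5.07% ± 0.166 in 4 lower larvae, with an exact permutation p of 0.0476 and an adjusted p of 0.286. Within the set of 15 they were 5.10% ± 0.266 in 7 upper larvae and 4.91% ± 0.0957 in 8 lower larvae, with an exact permutation p of 0.0783 and an adjusted p of 0.235. Leaving out ant 19, 31, 36, 44 or 55 brought the adjusted p under 0.05, and over all single larvae it ran between 0.00696 and 0.106.

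**Figure D5:**
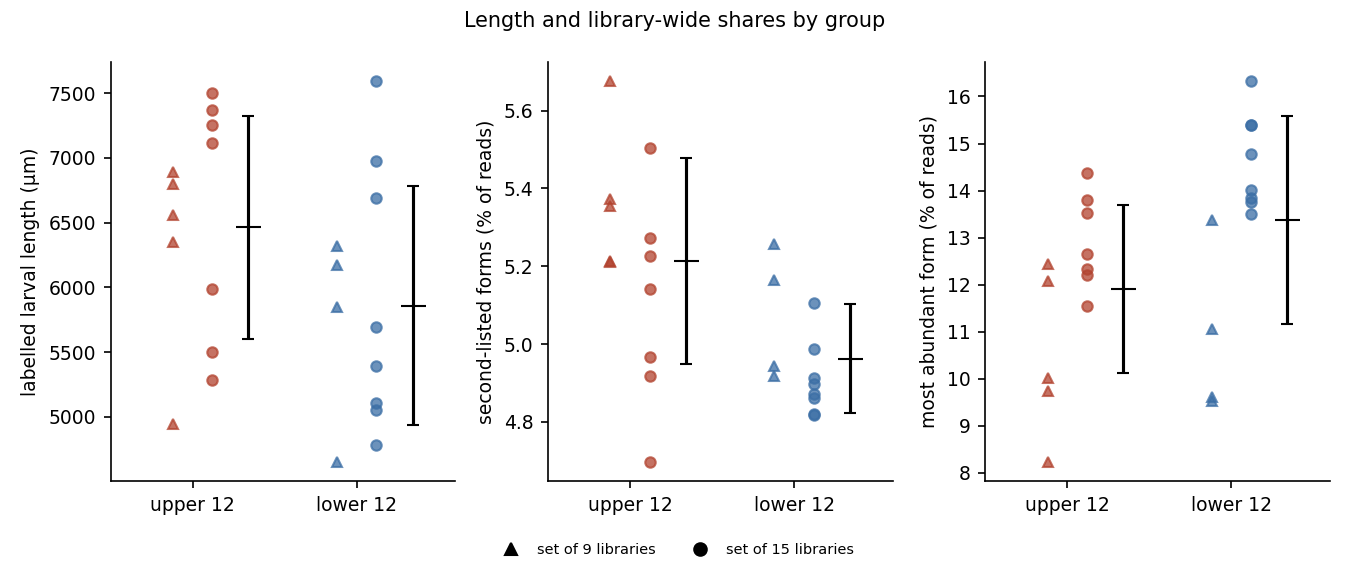
Labelled larval length, share of reads in second-listed forms, and share of reads of the most abundant form, all without the pair, in each larva of the upper 12 (left) and lower 12 (right) of each panel. Triangles are the set of 9 libraries, circles the set of 15, black bars means with SD, and the vertical axes do not start at 0. The upper larvae average 6464 µm, 5.21% and 11.9%, and the lower larvae 5858 µm, 4.96% and 13.4%.

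The share of the most abundant form was 11.9% ± 1.79 in the upper 12 and 13.4% ± 2.22 in the lower 12 (SD, n = 12 each), with a permutation p of 0.0880 and an adjusted p of 0.214. Within the set of 15 it was 12.9% ± 1.01 in 7 upper larvae and 14.6% ± 1.01 in 8 lower larvae, with an exact permutation p of 0.00777 and an adjusted p of 0.0466. Within the set of 9 it was 10.5% ± 1.75 in 5 upper larvae and 10.9% ± 1.80 in 4 lower larvae, with an exact permutation p of 0.778. The remaining measures differed by less than their spread. Upper larvae had 576 ± 59.6 forms with a read and lower larvae 580.1 ± 59.5, Shannon diversity was 4.88 ± 0.110 bits in the upper 12 and 4.83 ± 0.0854 bits in the lower 12, and counted reads averaged 3080740 in the upper 12 and 3291500 in the lower 12, with adjusted permutation p of 0.879, 0.290 and 0.879.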

How the data were processed

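Small RNA libraries of 24 single larvae were made from 1000 ng of total RNA, size-selected and sequenced single-end, per the labels' protocols. The submitters' processing notes name bcl2fastq 2.20 and Trim Galore 0.6.7. Aligner, counter and genome build: not given in the sources used here. Read counts and the authors' RPM fill each table, per the file headers; the deposited RPM equalled count over total reads, per 1000000, to within 0.0050. Of 924 rows for 459 hairpin names, a name repeated within a block was collapsed to its maximum, which left 918 forms, 101 with 0 reads throughout. Reads are not stated to carry molecular identifiers, so a floor of 3 reads covers counting error only.

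The tested forms had 10 reads or more in 12 or more libraries. There were 336 of them, with 99.97% of the reads, and 332 remain without the pair (298 distinct count profiles). edgeR 4.0.16 (TMM, robust quasi-likelihood F test) in R 4.3.3 fitted length in units of 1000 µm, library set and upper or lower group, with Benjamini-Hochberg adjustment at 0.05 over all forms. DESeq2 1.42.0 and limma 3.58.1 served as alternatives, and limma also for log2 ratios, with 0.5 added to each count. CPM is TMM-scaled, and log2 CPM has a prior count of 2. Library-wide measures used two-sided permutation tests of 100000 resamples (scipy 1.17.1), exact within a library set. P-values measure the spread between these larvae, whose independence of nest is not stated.

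The larvae of each group, the forms and the lists were chosen with earlier results of these data known. Named forms are those with the smallest adjusted p in each direction, up to 2 a direction by name and up to 10 by abundance rank, the most abundant forms, the pair's scaffold, and the 5 most like the ranking form.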

Additional observations from a re-analysis of the deposited data

Results flagged for a closer look

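In 4 of 48 groups examined (12 measures, each in the upper and lower larvae of each library set), 1 larva lay far from the others of its group by Dixon's criterion; chance gives about 1 in 20. Ant 9 measured 4943 µm, against 6349 to 6893 µm in the other upper larvae of the set of 9, a gap of 0.721 of the group's range. In ant 64 Shannon diversity reached 5.04 bits, where the other upper larvae of the set of 15 had 4.76 to 4.86 bits (0.637 of the range). Ant 43 had 521 forms with a read, against 606 to 645 in the other lower larvae of the set of 15 (0.685 of the range). Its library was also the shallowest of these, with 1638981 deposited reads against 3754529 to 5776471, and the cause was not tested. Ant 22 had 130 CPM of the second-listed form of NW_020229841.1_37657, against 45.5 to 79.2 CPM in the other lower larvae of the set of 15 (0.603 of the range).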

How the results depend on the processing

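The count of 0 forms called by edgeR held under all other settings tried but 1. They included DESeq2, limma-voom, other scalings and filters, narrower and continuous forms of the same ranking, each library set alone, and, added after seeing the data, a fit without ants 3 and 32 and a fit with the level of the set's form in place of the set. Ranking by the first-listed form of NW_020229214.1_7 gave the same groups, so it is no separate check. The exception added log10 of total reads as a covariate: 3 forms were then called (0.904%), 2 higher and 1 lower, and 68 had an unadjusted p under 0.05. These were NW_020229370.1_19768 at 0.73, the form of rank 170 at 0.55 and the form of rank 17 at -0.49, on the log2 scale. Their adjusted p in edgeR was 0.0309, 0.0309 and 0.0427, and the cause was not tested. Total reads differed between the library sets, so this covariate partly overlaps the set term, but total reads also varied within a set. Ants 43 and 51, both of the larger set, had 1638981 and 5776471 deposited reads. The SE of NW_020229370.1_19768 was 0.20 in the main fit and 0.17 with this covariate. Whether the overlap bears on the 3 calls was not tested. Leaving out 1 larva at a time gave 0 to 1 calls and 9 to 40 forms at an unadjusted p under 0.05; the call came without ant 42. Over these the fitted value of NW_020229841.1_37657 ran from 0.37 to 0.49. Without length in the fit, the differences of this form, of the form of rank 157 on its scaffold and of the profile of rank 151 were smaller by over 1.5 times, with the values given above. The interaction and ratio tests called 0 under every alternative.

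Some directions turned. NW_020229300.1_12464 came to 0.0299 with library set only and 0.0320 with no covariate. The second most abundant form came to 0.15 with set only, 0.16 with no covariate, 0.00039 with no scaling factor, and -0.0800 to 0.0281 without single larvae. In the set of 9 alone the most abundant form was at 0.0378 and the profile of rank 151 at -0.41. In the set of 15 alone the difference was 68500 in counted reads and 10.3 in forms with a read. There the share of the most abundant form kept its direction, at -1.71 percentage points, and passed its test. Without single larvae the difference ran from -487861 to 15047 in counted reads and -12.4 to 4.01 in forms with a read. The second-listed share kept its direction, at 0.207 to 0.296 percentage points. No paired analysis was possible because the ant numbers name single larvae and no number occurs in both groups.

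Depth limits the second hairpin in lower larvae, with as few as 2 reads. Of the 11 forms whose interval reached past 4-fold, 9 were among the 10 most variable forms beside the pair. Of these 9, 6 shared 1 count profile and 3 shared another, so they are not separate cases. The other 2 of the 11 were on the pair's scaffold, and the cause of these wide intervals was not tested. The ranking form itself comes from the same libraries as every form tested, and the split falls in a continuous range.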
